A study of Mus musculus with 4 samples.

Results

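The genes followed here were 10 targets of Wnt signalling and markers of the crypt stem cell, Lgr5, Ascl2, Olfm4, Smoc2, Gkn3, Axin2, Rnf43, Znrf3, Slc12a2 and Tnfrsf19. They were picked by symbol out of the 27998 genes measured, and their levels were described by cell class and by the genotype on the label. The cells came from enriched intestinal crypts of 8-week-old mice, were sorted as live EpCAM+ CD45- epithelial cells and were profiled with 10x Genomics 3′ v2 chemistry in 4 libraries. In 2 libraries, labelled Slc7a5 fl/fl, both alleles of the amino acid transporter gene Slc7a5 were floxed and no Cre was carried, and in the 2 libraries labelled Slc7a5 IEC-KO the same floxed alleles were combined with villin-Cre, which acts throughout the intestinal epithelium and not in a particular cell type. The labels name 4 mice in all and do not say which mouse or mice went into which library, so that every p-value below measures the spread between these libraries only.

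Stem cells at the crypt base, the crypt base columnar cells, sit between Paneth cells and are kept by Wnt ligands that Paneth cells and the underlying mesenchyme supply. Wnt ligands bind Frizzled and Lrp co-receptors, which stabilises beta-catenin, and beta-catenin together with Tcf factors then switches on target genes. R-spondins, bound by Lgr5 and its relatives, strengthen the signal by keeping the ubiquitin ligases Rnf43 and Znrf3 from removing Frizzled, while Axin2 feeds back on the pathway by helping to destroy beta-catenin. Ascl2 is the transcription factor of the stem cell program, Olfm4 and Smoc2 code for secreted glycoproteins and Gkn3 for a secreted gastrokine of the crypt base. Slc12a2 codes for the sodium, potassium and chloride cotransporter of crypt cells, and Tnfrsf19, also called Troy, for a receptor that Wnt signalling induces in stem cells.

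All 10 genes are protein coding. On mouse genome build GRCm38 (mm10), Lgr5 lies on chromosome 10 from 115450311 to 115587780 (minus strand), Ascl2 on chromosome 7 from 142966829 to 142969264 (minus) and Olfm4 on chromosome 14 from 79984081 to 80023139 (plus). Smoc2 lies on chromosome 17 from 14279506 to 14404790 (plus), Gkn3 on chromosome 6 from 87383256 to 87388935 (minus), and Tnfrsf19 on chromosome 14 from 60963875 to 61046490 (minus). The feedback genes Axin2 (108920349 to 108950783, plus), Rnf43 (87662722 to 87735539, plus) and Znrf3 (5276324 to 5444847, minus) all lie on chromosome 11.

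Promoter sequences from RefSeq, from 250 bases before to 50 bases after a start site, were at hand for 6 of the 10 genes, with 8 start sites in all. They were searched on both strands for CTTTGAT and CTTTGAA, the core that Tcf factors bind. Such a core was present in 1 of the 8 member promoters, beside 2842 of 32851 RefSeq promoters of the same length (8.65%). The promoters of Ascl2, Olfm4 and Gkn3 are printed because these genes were lower in Paneth cells of the IEC-KO-labelled libraries, and that of Tnfrsf19 because it was higher there and holds the match. All are written 5′ to 3′ on the gene's own strand, on GRCm38.p6, at chr7:142969215-142969514 (minus), chr14:80000052-80000351 (plus), chr6:87388886-87389185 (minus) and chr14:61037938-61038237 (minus), in that order. Capitals mark the core, which here is the reverse complement of CTTTGAT and begins 202 bases before the start site.
Ascl2: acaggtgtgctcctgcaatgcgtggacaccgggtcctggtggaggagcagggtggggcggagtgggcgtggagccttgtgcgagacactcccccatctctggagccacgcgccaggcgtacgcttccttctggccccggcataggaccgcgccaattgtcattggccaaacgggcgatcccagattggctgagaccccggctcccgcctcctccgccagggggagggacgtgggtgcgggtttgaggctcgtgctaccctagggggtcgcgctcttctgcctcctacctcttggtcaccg
Olfm4: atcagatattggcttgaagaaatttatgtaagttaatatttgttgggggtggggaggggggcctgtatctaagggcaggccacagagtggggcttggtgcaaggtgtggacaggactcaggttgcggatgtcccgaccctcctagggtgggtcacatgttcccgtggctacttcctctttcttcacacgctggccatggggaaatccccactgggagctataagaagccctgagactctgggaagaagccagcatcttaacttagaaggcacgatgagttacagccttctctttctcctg
Gkn3: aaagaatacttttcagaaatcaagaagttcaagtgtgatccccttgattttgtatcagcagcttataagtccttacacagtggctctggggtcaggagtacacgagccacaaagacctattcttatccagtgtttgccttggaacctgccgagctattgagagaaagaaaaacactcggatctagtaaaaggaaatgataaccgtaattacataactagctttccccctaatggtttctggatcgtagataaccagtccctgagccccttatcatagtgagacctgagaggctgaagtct
Tnfrsf19: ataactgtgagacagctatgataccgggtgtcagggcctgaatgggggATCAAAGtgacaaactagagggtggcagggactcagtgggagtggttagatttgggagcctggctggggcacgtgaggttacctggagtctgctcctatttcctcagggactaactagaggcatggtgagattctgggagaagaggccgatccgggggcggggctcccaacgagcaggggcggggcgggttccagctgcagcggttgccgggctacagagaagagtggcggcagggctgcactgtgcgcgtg
The match is a matter of letters only, and its absence elsewhere holds only for these windows.

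The libraries held 3633 and 3217 cells (fl/fl-labelled) and 10004 and 9644 cells (IEC-KO-labelled), with 87922473 to 127094508 UMIs each, and a pair of libraries shared 14 to 132 cell barcodes. Median UMIs per cell were 22242 and 32549 in the fl/fl-labelled and 6699.5 and 9717.5 in the IEC-KO-labelled libraries, and the lowest totals of a kept cell also differed, at 8909, 9670, 3843 and 5858. Slc7a5 itself did not follow the labels in every class. In the order fl/fl 1, fl/fl 2, IEC-KO 1, IEC-KO 2 it gave 9, 7, 0 and 6 UMIs in cycling cells, 34, 32, 171 and 254 in goblet cells and 91, 84, 128 and 252 in Paneth cells. In goblet cells and Paneth cells it was higher in the libraries labelled IEC-KO (edgeR quasi-likelihood test with Benjamini-Hochberg adjustment, log2 fold change 0.91, adjusted p = 0.000989, and 1.71, adjusted p = 4.99e-09). A 3′ tag lies outside the deleted exon and cannot check the deletion, and genotypes are therefore given as labels throughout.

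A cell counted as a Paneth cell when genes whose symbols start with Defa, the alpha-defensins of Paneth cell granules, took 30% or more of its UMIs, which held for 2020, 1950, 2019 and 2336 cells in the same order of libraries. Cells under 20% were sorted by the summed markers of each class into 13020 goblet cells, 984 cycling cells, 785 enterocytes, 212 tuft cells, 170 enteroendocrine cells and 270 others. The 2732 cells between both limits (120, 89, 1305 and 1218 in the same order of libraries) were kept apart. Lyz1, which codes for lysozyme, stood at 115100 and 113000 CPM (UMIs per 1000000 UMIs outside the alpha-defensin genes) in the Paneth class of the fl/fl-labelled libraries. In that of the IEC-KO-labelled libraries it stood at 40960 and 31800. The goblet gene Agr2 stood at 18880 to 24630 in the goblet class and the enterocyte gene Fabp1 at 10160 to 13000 in the enterocyte class. The same scale is used for every level. Clusters of all cells divided by genotype, so that the cells of a class lay in different clusters in each group. Clusters with 95% or more cells of their own genotype label held 99.7% of fl/fl-labelled and 99.4% of IEC-KO-labelled Paneth cells, 94.9% and 95.4% of goblet cells, 100% and 94.3% of cycling cells, and 93.4% and 0.35% of enterocytes. The changes within the Paneth, goblet, cycling and enterocyte classes therefore mostly compare cells of different clusters. For enterocytes this rests on the fl/fl-labelled cells, as nearly all IEC-KO-labelled ones lay in clusters with under 95% of their own label. Levels are compared between classes and libraries of a gene, and not between genes.

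Outside the Paneth class, cycling cells held the highest mean level of all 10 genes among the 6 classes. Their 4 libraries did not overlap with those of goblet cells or enterocytes for any gene. The cycling class leaves out cells above the limit of summed goblet markers. Of cells over the cycling limit, 366, 283, 760 and 792 were instead classed as goblet cells, in the same order of libraries. In these, mean Lgr5 was 4.73 CPM and mean Ascl2 7.17, beside 17.2 and 51.4 in the cycling class. The gap was smaller for Slc12a2, at 160 and 177. Levels given here for cycling cells are those of cells under the goblet limit only. Lgr5 stood at 24.4 and 16.3 CPM in cycling cells of the fl/fl-labelled libraries and at 15.9 and 12.2 in the IEC-KO-labelled ones, against 3.14 to 3.77 in goblet cells and 0.548 to 3.38 in enterocytes. Ascl2 stood at 42.7 to 54.7 in cycling cells, 1.70 to 6.18 in goblet cells and at most 2.99 in enterocytes. The other genes of the crypt base followed the same order of classes, with Olfm4 at 16.0 to 21.5, Smoc2 at 46.2 to 67.4 and Gkn3 at 19.9 to 38.7 in cycling cells. In goblet cells these were at 2.00 to 4.93, 19.9 to 26.4 and 3.06 to 4.82.

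Among the feedback genes, Axin2 was at 42.2 to 59.1 CPM in cycling cells and 4.99 to 9.43 in goblet cells, and Rnf43 at 14.7 to 16.6 and 5.32 to 6.39. Znrf3, at 3.57 to 4.97, and Tnfrsf19, at 2.55 to 3.97, were close to the limit of detection in cycling cells, with 7 to 10 and 5 to 8 UMIs in a library. Slc12a2 was the gene with the smallest gap between these classes, at 158 to 193 in cycling and 112 to 152 in goblet cells, and stood in enterocytes at 18.6 to 33.4. Tuft cells, though few, had Ascl2 levels of 32.4, 61.7, 41.1 and 40.3 from 5, 15, 28 and 25 UMIs, which overlapped with those of cycling cells. Smoc2, at 40.3 to 58.3 in tuft cells, overlapped with cycling cells as well. So did Lgr5, at 5.87 to 25.9 in tuft cells from 4, 3, 4 and 4 UMIs, Gkn3 at 0 to 37.0 and Znrf3 at 0 to 6.48. The highest Gkn3 value rested on 9 UMIs.

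**Figure D1:**
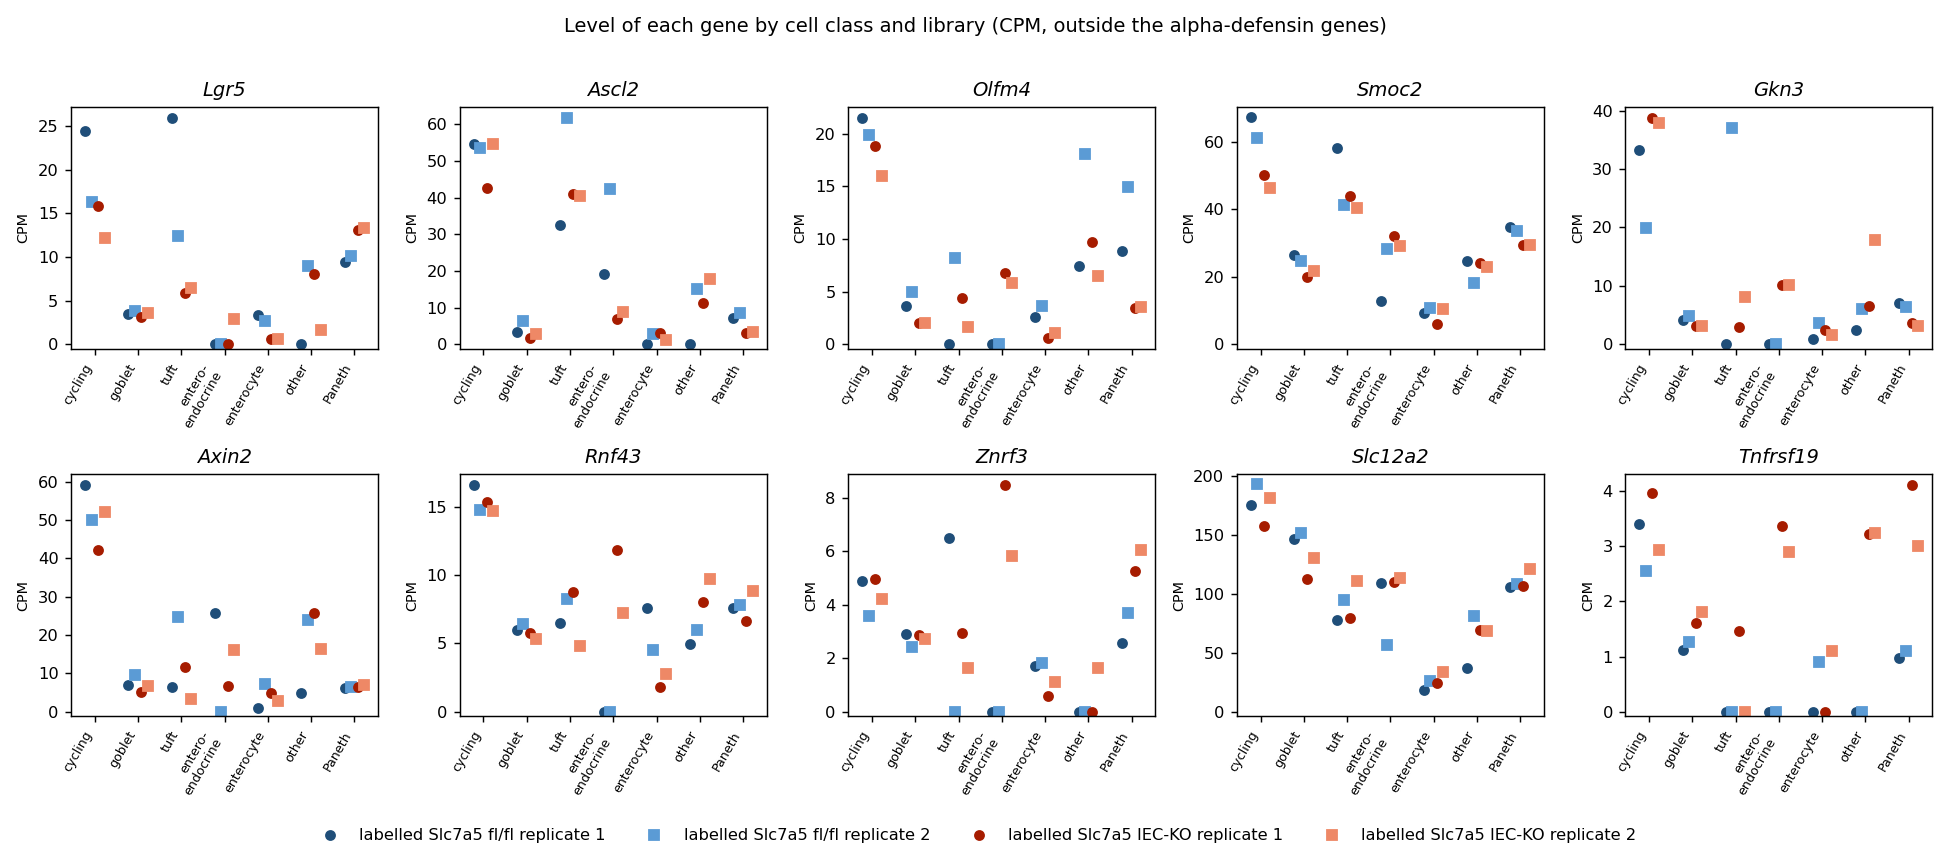
Level of each gene (CPM outside the alpha-defensin genes, linear axis from 0, a panel per gene) in 7 cell classes, with a symbol for each of the 4 libraries. Axin2 stood at 42.2 to 59.1 in cycling cells and at most 9.43 in goblet cells, and Slc12a2 at 158 to 193 in cycling and 112 to 152 in goblet cells.

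The part of a library's Lgr5 UMIs that lay in Paneth class cells was 70.0% and 78.1% in the fl/fl-labelled and 43.9% and 53.2% in the IEC-KO-labelled libraries. Cycling cells held 12.6%, 8.25%, 7.71% and 4.85% of them. These shares follow the number and depth of the cells in a class as well as the level per UMI, and the Paneth class made up 55.6% and 60.6% of cells in the fl/fl-labelled against 20.2% and 24.2% in the IEC-KO-labelled libraries.

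Over the 20 sums of 5 classes in 4 libraries, the levels of Ascl2, Axin2 and Gkn3 ran closest together of these, with Pearson correlations on the log2 scale of 0.915 for Ascl2 with Axin2, 0.911 for Ascl2 with Gkn3 and 0.903 for Gkn3 with Axin2. Among 7593 genes with a mean of 5 CPM or more, members aside, Cdca7 was nearest to Gkn3 (0.923), Fam60a to Axin2 (0.925), Ngfrap1 to Slc12a2 (0.971) and Tnfaip8l1 to Smoc2 (0.954). Cdca7 is also in the list of other Wnt targets followed below. The nearest to Lgr5 was Ddx56 (0.875), to Ascl2 Rdm1 (0.884) and to Olfm4 Nme4 (0.877). Rbm38 was nearest to Rnf43 (0.888), Cdc34 to Znrf3 (0.908) and Polr1a to Tnfrsf19 (0.873). The 20 points share libraries and depth, so these correlations are a description.

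The first comparison was between genotypes within cycling cells (193 and 164 fl/fl-labelled, 337 and 290 IEC-KO-labelled cells), where the UMIs of each library were summed. None of the members passed the test there. Of the 10 genes, 8 had enough UMIs to be tested and 0 passed an adjusted p of 0.05 with edgeR or with DESeq2. Of all 8680 genes tested, 1.95% passed with edgeR and 0.691% with DESeq2. An unadjusted p under 0.05 was found for 2 of the 8 with edgeR and 0 with DESeq2. Over all genes this held for 1061 with edgeR and 290 with DESeq2. Lgr5 gave 50 and 32 UMIs in the fl/fl-labelled and 32 and 29 in the IEC-KO-labelled libraries. On the CPM scale fl/fl replicate 2 and IEC-KO replicate 1 lay next to each other without overlap, at 16.3 and 15.9, and on the TMM scale of the test they overlapped. The log2 fold change of IEC-KO-labelled against fl/fl-labelled libraries was -0.50, with a 95% interval of -1.03 to 0.04 (edgeR, adjusted p = 0.456).

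Ascl2, with 112, 105, 86 and 130 UMIs in the same order of libraries, overlapped between genotypes, and its log2 fold change of -0.08 had an interval of -0.39 to 0.23. Olfm4 was a little lower in each IEC-KO-labelled library at 18.9 and 16.0 CPM against 21.5 and 19.9, a log2 fold change of -0.20 with an interval from -0.66 to 0.26.

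Smoc2 and Gkn3, like Olfm4, did not overlap between genotypes but did not pass the adjusted test. With so few libraries a gene can easily separate by label without a real difference. The share of all genes without overlap is not given, so lack of overlap between genotypes is a description in every class. Smoc2 was at 67.4 and 61.1 CPM in the fl/fl-labelled and 50.1 and 46.2 in the IEC-KO-labelled libraries, with a log2 fold change of -0.36 (interval -0.64 to -0.08, edgeR adjusted p = 0.248). Gkn3 was at 33.2 and 19.9 against 38.7 and 37.8, with a log2 fold change of 0.58 (interval 0.16 to 0.99, edgeR adjusted p = 0.181). The low fl/fl-labelled value is that of replicate 2, and without fl/fl replicate 1 the log2 fold change of Gkn3 was 1.00 (adjusted p = 0.00568), which passed.

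The feedback genes and Slc12a2 lay near 0. Axin2, at 59.1 and 49.9 against 42.2 and 52.1 CPM, overlapped, with a log2 fold change of -0.14 (interval -0.46 to 0.17), and that of Rnf43 was -0.00 (-0.51 to 0.50). Slc12a2, the best counted of the genes with 318 to 433 UMIs in a library, had a log2 fold change of -0.05 and the narrowest interval, -0.26 to 0.16.

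Cycling cells as classed here exclude cells above the goblet limit. With classes taken from clusters Ascl2 passed as lower in the IEC-KO-labelled libraries (log2 fold change -0.52, adjusted p = 0.0315). When cycling goblet cells were counted in, a choice made after seeing the data, Ascl2 (log2 fold change -0.49, adjusted p = 0.0283) and Olfm4 (-0.70, adjusted p = 0.0474) passed the test as lower. Of all genes tested, 4.96% were called with classes from clusters and 6.24% with cycling goblet cells counted in. Within the cycling class, 9 of 20 goblet markers were higher and 5 of 30 cycling markers lower in the IEC-KO-labelled libraries, with summed goblet markers of 18455 and 18700 against 21933 and 27755 CPM. The part of these markers in the results for cycling cells was not tested.

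The share of cycling cells with a UMI was compared after each cell was thinned to 3000 UMIs outside the alpha-defensin genes, since the depth differed between genotypes (median UMIs 10790 and 11903 against 5668 and 8208.5). An Lgr5 UMI was then found in 6.22% and 3.05% of cycling cells of the fl/fl-labelled and in 5.64% and 3.1% of those of the IEC-KO-labelled libraries, and the genotypes overlapped. In enterocytes, taken as the background class with median UMIs of 10294, 11056.5, 5126 and 7251, the share was 0%, 0%, 0% and 0.4%. Without thinning, 15.5% of cycling cells of fl/fl replicate 1 had an Lgr5 UMI.

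Ascl2 was found in 14.0% and 10.4% against 11.3% and 13.4% of thinned cycling cells, and in at most 0.621% of enterocytes. Slc12a2 was the most widely found gene, in 38.9% and 39.6% against 30.9% and 33.1% of cycling cells and 6.09% to 9.18% of enterocytes. The Slc12a2 shares did not overlap between genotypes, although its summed UMIs did.

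**Figure D2:**
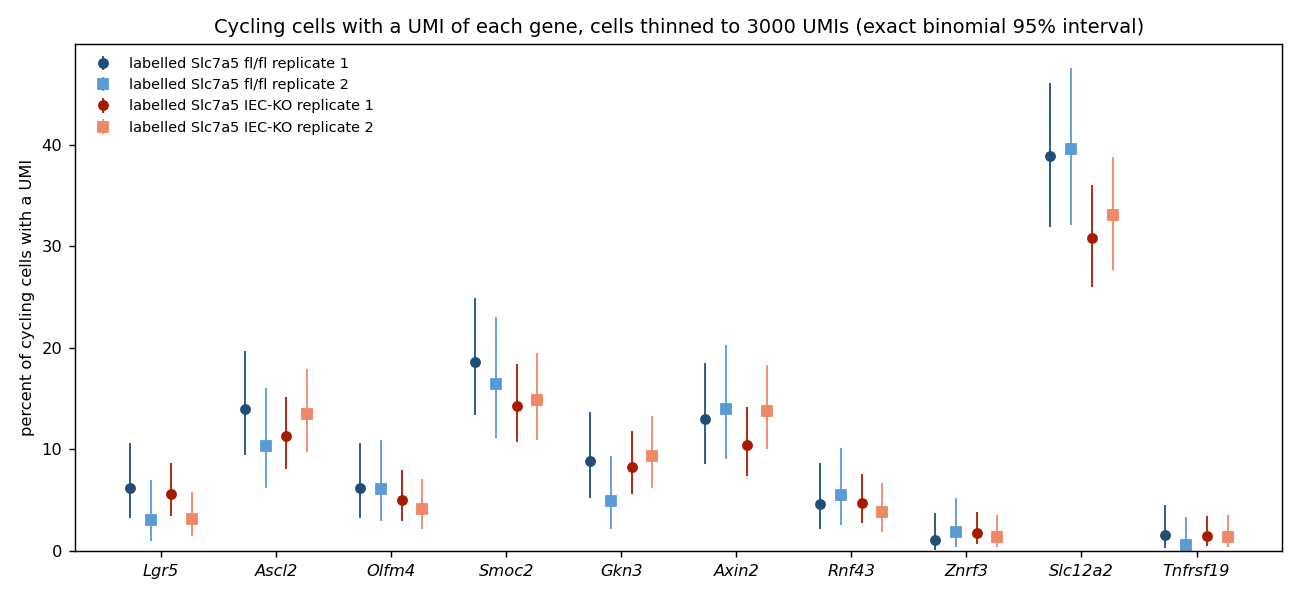
Percent of cycling cells with at least 1 UMI of each gene after thinning to 3000 UMIs (linear axis from 0), a symbol per library, with bars for the exact binomial 95% interval, which covers counting error only. Lgr5 shares lay between 3.05% and 6.22%, and the bars of the 4 libraries overlapped for most genes.

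Co-detection with Lgr5 was described for 6 of the genes in cycling cells. Of the 30 cycling cells of fl/fl replicate 1 with an Lgr5 UMI at full depth, 22 (73.3%) also had an Ascl2 UMI, against 27.6% of those without, and in fl/fl replicate 2 the shares were 65.4% of 26 cells and 31.9%. In the libraries labelled IEC-KO they were 36.7% of 30 cells against 17.3%, and 58.3% of 24 cells against 24.1%. At full depth the Ascl2 share was thus higher in Lgr5-positive cells of all 4 libraries, whose median UMI totals were close to those of the other cycling cells. After thinning, which left 12, 5, 19 and 9 cells with an Lgr5 UMI, it was higher in 3 libraries and lower in IEC-KO replicate 2, at 11.1% against 13.5%, where Axin2 was at 0% against 14.2%.

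Axin2 was found in 63.3%, 61.5%, 30.0% and 58.3% of Lgr5-positive and in 31.9%, 37.0%, 19.9% and 28.6% of the other cycling cells. Olfm4 was found in 46.7%, 34.6%, 30.0% and 20.8% against 12.9%, 18.1%, 7.82% and 10.9%. Slc12a2 was also more widely found in Lgr5-positive cells of each library. Gkn3 and Smoc2 were not, since in fl/fl replicate 2 Gkn3 was found in 11.5% of Lgr5-positive and 14.5% of the other cells, and in IEC-KO replicate 1 Smoc2 was found in 23.3% and 24.8%. At least 5 of the 10 genes were found together in 18.1% and 20.7% of cycling cells of the fl/fl-labelled and 6.23% and 10.0% of the shallower IEC-KO-labelled libraries, and in 0 of the 785 enterocytes.

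**Figure D3:**
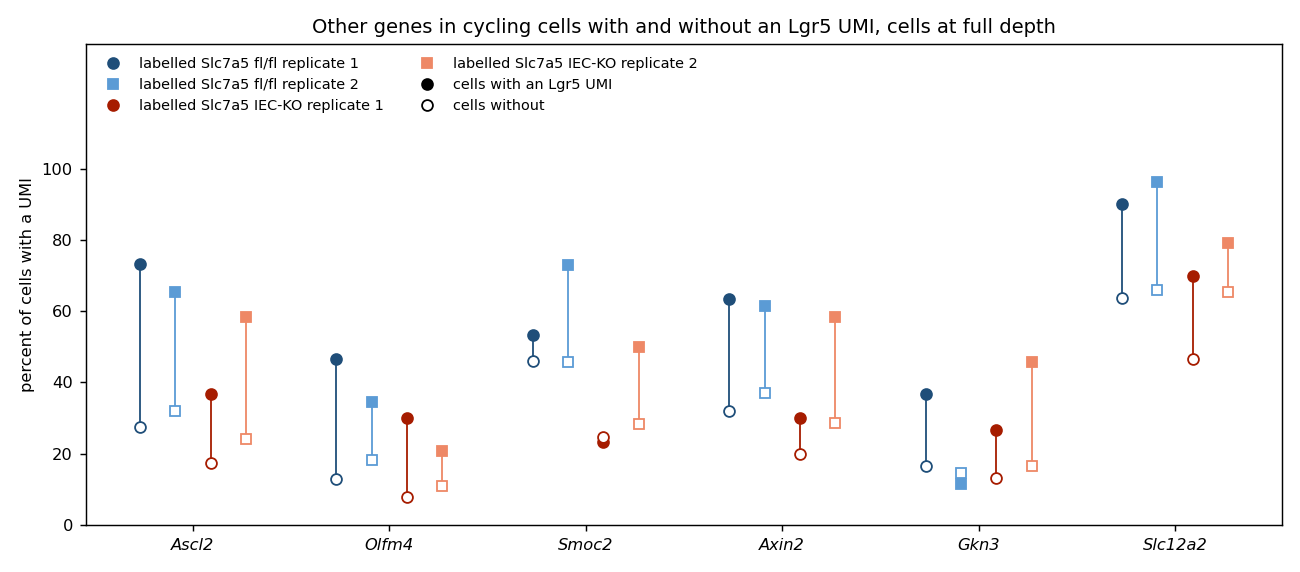
Percent of cycling cells with a UMI of 6 other genes (linear axis), in cells with (filled) and without (open) an Lgr5 UMI, a symbol per library, cells at full depth. For Ascl2 the filled points lie at 36.7% to 73.3% and the open ones at 17.3% to 31.9%.

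The rest of the Wnt pathway and of the stem cell program was followed in cycling cells through 9 lists of 137 genes, of which 76 were tested. A single gene passed with edgeR, and likewise a single gene with DESeq2, beside 1.95% and 0.691% of all 8680 genes tested. An unadjusted p under 0.05 was found for 9 and 4 of the listed genes, beside 1061 and 290 of all genes. The gene was Mmp7, which codes for the matrix metalloproteinase that processes defensins in Paneth cells, at a log2 fold change of 0.84 (adjusted p = 1.17e-06, from 847 and 826 to 1343 and 1825 UMIs). Its rise was not particular to cycling cells. It was also called higher in enterocytes (0.80), unassigned cells (0.90), goblet cells (0.45) and the Paneth class (0.40). Mmp7 stood at 413, 421, 667 and 767 CPM in cycling cells and at 392, 408, 598 and 755 in enterocytes. Its level was 417.5 to 890.5 in unassigned cells, 1589 to 2067 in goblet cells and 4691 to 6821 in the Paneth class. Of 13 Paneth markers tested in cycling cells 5 were higher and 6 lower. No gene passed among 2 Wnt ligands and secretion factors, 5 receptors, 11 cytoplasmic components, 7 nuclear factors, 1 antagonist, 21 other crypt base columnar markers, 8 reserve and revival markers and 9 niche signals. Their medians ran from -0.21 for the reserve and revival markers to 0.55 for the single antagonist, beside -0.01 over all genes.

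Goblet cells gave 1118 and 859 cells in the fl/fl-labelled and 5715 and 5328 in the IEC-KO-labelled libraries, and 2 of the 10 genes fell in the libraries labelled IEC-KO, Ascl2 and Olfm4. All 10 could be tested, and 12.8% of all 11929 genes passed as lower and 13.4% as higher, so that 2 of 10 lower and 0 of 10 higher is close to the background. Ascl2 stood at 3.34 and 6.18 CPM in the fl/fl-labelled and 1.70 and 2.73 in the IEC-KO-labelled libraries, from 39, 59, 58 and 121 UMIs. The genotypes did not overlap, and the log2 fold change was -0.92 ± 0.26 (SE, edgeR adjusted p = 0.0149). Olfm4 stood at 3.59 and 4.93 against 2.00 and 2.05, from 42, 47, 68 and 91 UMIs, without overlap and with a log2 fold change of -0.93 ± 0.21 (SE, edgeR adjusted p = 0.00297). In enterocytes Olfm4 stood at 0.597 to 3.60, from 3, 4, 1 and 2 UMIs, a range that overlaps with these goblet levels.

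Both goblet calls were lost in several alternatives. Without fl/fl replicate 2 the log2 fold changes were -0.45 (adjusted p = 0.315) for Ascl2 and -0.71 (adjusted p = 0.0697) for Olfm4. With a common lower limit of UMIs per cell they were -0.27 and -0.51, and with classes from clusters -0.06 and -0.70, and neither passed. With cells thinned to 3000 UMIs Ascl2 passed and Olfm4 did not. Goblet cells of both genotypes also differed in how many were cycling, 32.7% and 32.9% against 13.3% and 14.9%, and 26 of 30 cycling markers were lower in the IEC-KO-labelled libraries (median -0.96, summed 1313 and 1336 against 589 and 635 CPM). Of 20 enterocyte markers 16 were lower (median -0.62), of 14 enteroendocrine markers 8 were higher, and of 14 Paneth markers 7 were higher and 6 lower. The part of these lists in the goblet changes was not tested.

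Divided by cycling, a choice made after seeing the data, Ascl2 was at 7.23 and 11.0 against 4.52 and 5.92 CPM in cycling goblet cells and at 1.08 and 3.45 against 1.18 and 2.05 in the others. Ascl2 passed in neither (log2 fold change -0.67, adjusted p = 0.172, and -0.35, adjusted p = 0.612). Olfm4 passed in the goblet cells that did not cycle (-0.80, adjusted p = 0.0435) and not in those that did (-1.12, adjusted p = 0.0701). Tnfrsf19 passed as higher in the goblet cells that did not cycle, with 0.675 and 0.657 against 1.70 and 1.83 CPM (log2 fold change 1.44, adjusted p = 0.0179). That rested on 9 UMIs in the fl/fl-labelled and 116 in the IEC-KO-labelled libraries together. Over all goblet cells Tnfrsf19 did not pass (0.66, adjusted p = 0.115). Of all genes tested, 23.1% were called in the goblet cells that did not cycle and 4.95% in those that did.

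Of the other members, Lgr5 did not pass in goblet cells, at 3.51 and 3.77 against 3.14 and 3.54 CPM, with a log2 fold change of 0.01 and an interval from -0.39 to 0.41. Slc12a2 stood at 147 and 152 against 112 and 130 without overlap, and with -0.18 (interval -0.33 to -0.03) did not pass after adjustment (edgeR adjusted p = 0.0737). Smoc2 (-0.18), Gkn3 (-0.40), Axin2 (-0.35), Rnf43 (-0.04) and Znrf3 (0.18) did not pass either. With the library size alone as the scale, which moved the median of all genes in goblet cells to -0.10 and the calls from 1603 higher and 1527 lower to 1007 and 2562, 5 members passed.

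Of the 103 listed genes tested in goblet cells 18 rose and 18 fell, beside 13.4% and 12.8% of all genes tested. Among the other crypt base columnar markers, 6 rose and 6 fell of 25, with Rgcc at 1.5 and Slc14a1 at -1.59 on the log2 scale. The Slc14a1 change rested on 7, 9, 3 and 15 UMIs (edgeR adjusted p = 0.0496). Of 14 other Wnt targets 4 rose and 2 fell, with the Eph receptor gene Ephb3 at 0.89 and Cd44, a hyaluronan receptor, at -0.69. The ligand Wnt3 rose (0.49, adjusted p = 0.000309), the only one called of 3 ligands and secretion factors. Of 11 receptors 1 rose, Fzd9 (0.53), and 2 fell, Fzd5 (-0.46) and the R-spondin receptor Lgr4 (-0.23). Of 14 niche signals 2 rose and 5 fell. The EGF family ligand Areg was at 2.86 from 6, 1, 68 and 108 UMIs, its receptor Egfr at 0.86 and Notch1 at -1.30.

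In enterocytes the genes were near background. Smoc2 and Slc12a2 could be tested and 0 passed with edgeR or DESeq2, beside 1.93% and 0.681% of all 7198 genes tested. Neither had an unadjusted p under 0.05, beside 919 of all genes with edgeR and 256 with DESeq2. Slc12a2 gave 22, 29, 40 and 61 UMIs and a log2 fold change of 0.41 (interval -0.14 to 0.96), and Smoc2 11, 12, 10 and 19 UMIs and -0.23 (-1.07 to 0.60). In the 270 unassigned cells outside the Paneth class, 0 of 3 genes tested passed with either tool, beside 2.03% (edgeR) and 0.589% (DESeq2) of all 4586 genes. None had an unadjusted p under 0.05, beside 605 of all genes with edgeR and 174 with DESeq2. Smoc2 was at 0.12, Axin2 at 0.62 and Slc12a2 at 0.27 on the log2 scale. The fl/fl-labelled tuft and enteroendocrine cells numbered 6 to 19 in a library and were not tested.

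In the Paneth class 7 of the 10 genes passed, 3 as higher and 4 as lower, where 20.1% of all 12492 genes passed as higher and 19.8% as lower. Ascl2, Olfm4 and Gkn3 fell by 1.07 to 1.81 on the log2 scale and Tnfrsf19 rose by 1.68, whereas the changes of Lgr5, Znrf3 and Smoc2 were smaller. Olfm4 stood at 8.87 and 14.9 CPM in the fl/fl-labelled and 3.46 and 3.56 in the IEC-KO-labelled libraries, from 262, 449, 48 and 85 UMIs. Every fl/fl-labelled value was above both others, and the log2 fold change was -1.81 ± 0.20 (SE, edgeR adjusted p = 2.71e-07).

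Ascl2 stood at 7.04 and 8.42 against 3.17 and 3.39 CPM, from 208, 253, 44 and 81 UMIs, without overlap and with a log2 fold change of -1.28 ± 0.16 (SE, edgeR adjusted p = 1.29e-06). Gkn3, at 7.01 and 6.43 against 3.60 and 3.14, did not overlap either (-1.07 ± 0.16, SE, edgeR adjusted p = 1.84e-05). Smoc2 was at 34.6 and 33.5 against 29.6 and 29.3 and passed with a smaller change (-0.26 ± 0.08, SE, edgeR adjusted p = 0.0100), which turned to 0.36 with library size as the scale.

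Tnfrsf19 had the largest rise, from 0.982 and 1.10 to 4.11 and 3.01 CPM on 29, 33, 57 and 72 UMIs (log2 fold change 1.68 ± 0.25, SE, edgeR adjusted p = 1.35e-05). The promoter printed above with the Tcf core belongs to this gene, at the downstream of its 2 start sites. Znrf3 went from 2.57 and 3.70 to 5.26 and 6.03 (0.81 ± 0.18, SE, edgeR adjusted p = 0.00108). Lgr5 went from 9.41 and 10.1 to 13.1 and 13.3 (0.39 ± 0.10, SE, edgeR adjusted p = 0.00493). None of the 3 overlapped between genotypes. In the cells between both alpha-defensin limits, which were not tested, mean Lgr5 was instead 13.5 CPM in the fl/fl-labelled and 8.44 in the IEC-KO-labelled libraries. Mean Znrf3 there was 4.92 and 4.88, and mean Tnfrsf19 was 2.51 and 3.30. The fl/fl-labelled means of these cells rested on 28, 9 and 5 UMIs for Lgr5, Znrf3 and Tnfrsf19.

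Axin2 (log2 fold change 0.06, interval -0.22 to 0.34), Rnf43 (-0.01, -0.28 to 0.27) and Slc12a2 (0.05, -0.09 to 0.19) did not pass in the Paneth class, and their libraries overlapped. Of these feedback and transport genes, Slc12a2 had 106 and 108 against 107 and 121 CPM. Of the 2 ubiquitin ligase genes of the pathway, Znrf3 was called higher and Rnf43 was not called, and the difference between them was not tested.

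**Figure D4:**
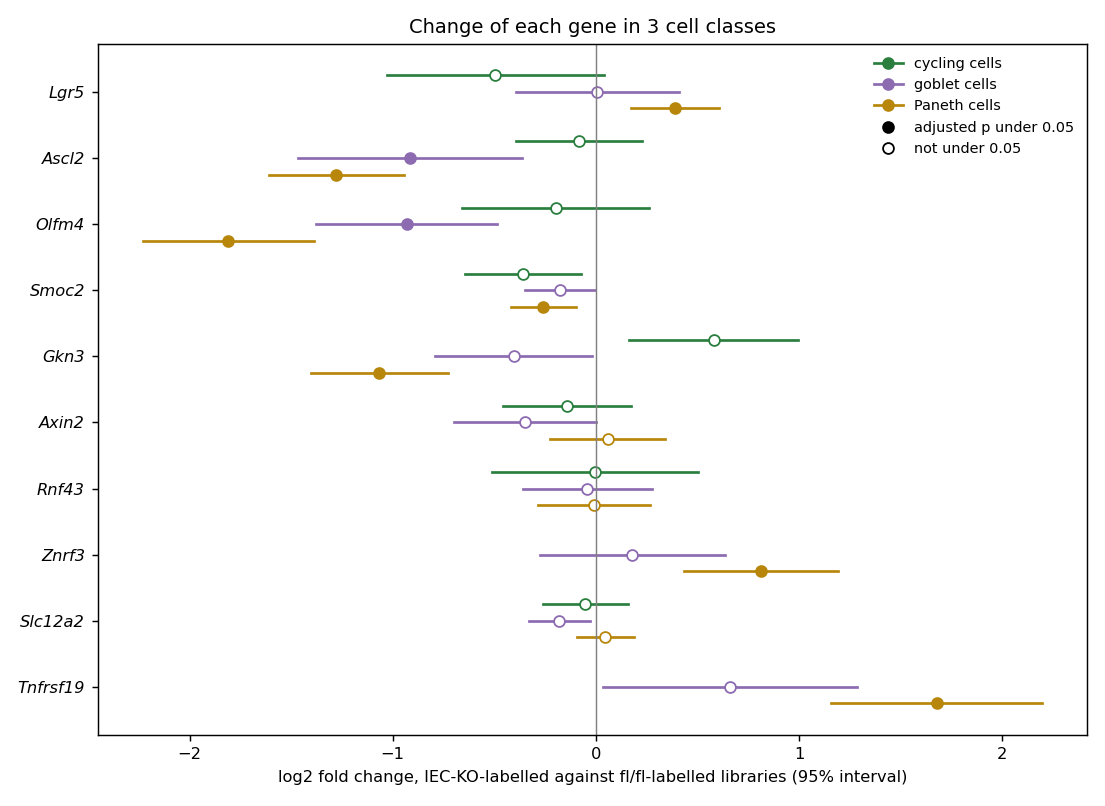
Log2 fold change of each gene, IEC-KO-labelled against fl/fl-labelled libraries, with its 95% interval, in cycling, goblet and Paneth cells, filled where the adjusted p was under 0.05. Filled points are Ascl2 and Olfm4 in goblet cells and 7 genes in Paneth cells, among them Olfm4 at -1.81, Tnfrsf19 at 1.68 and Smoc2 at -0.26, which turned to 0.36 with library size as the scale.

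The scale mattered in the Paneth class because alpha-defensin genes took 68.7% and 70.9% of UMIs in the fl/fl-labelled but 55.0% and 55.3% in the IEC-KO-labelled libraries. With library size alone the median of all genes moved to 0.62, calls moved from 2515 higher and 2475 lower to 8795 and 454, and all 10 members passed, with Ascl2 at -0.65, Olfm4 at -1.18, Gkn3 at -0.44 and Tnfrsf19 at 2.30. Over 16 alternatives, Ascl2, Olfm4, Gkn3 and Tnfrsf19 passed in the same direction in 16. Lgr5 passed in 11 and Znrf3 in 13. Smoc2 passed in 10 as lower and, with library size as the scale, in 1 as higher. Lgr5, Znrf3 and Smoc2 did not pass with cells thinned to 3000 UMIs or with alpha-defensin limits of 40% and 10%. They did pass with a common lower limit of UMIs per cell. Median UMIs of Paneth class cells were 46965 and 52851.5 in the fl/fl-labelled and 13782 and 20159 in the IEC-KO-labelled libraries. With DESeq2 5 of the 10 members passed, 2 higher and 3 lower, beside 1636 higher and 1487 lower of all 12492 genes tested. Of the 7 members that passed with edgeR, Lgr5 (DESeq2 adjusted p = 0.0666) and Smoc2 (DESeq2 adjusted p = 0.0948) did not pass with DESeq2. Lgr5 was at 0.06 (adjusted p = 0.641) when classes were taken from clusters.

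**Figure D5:**
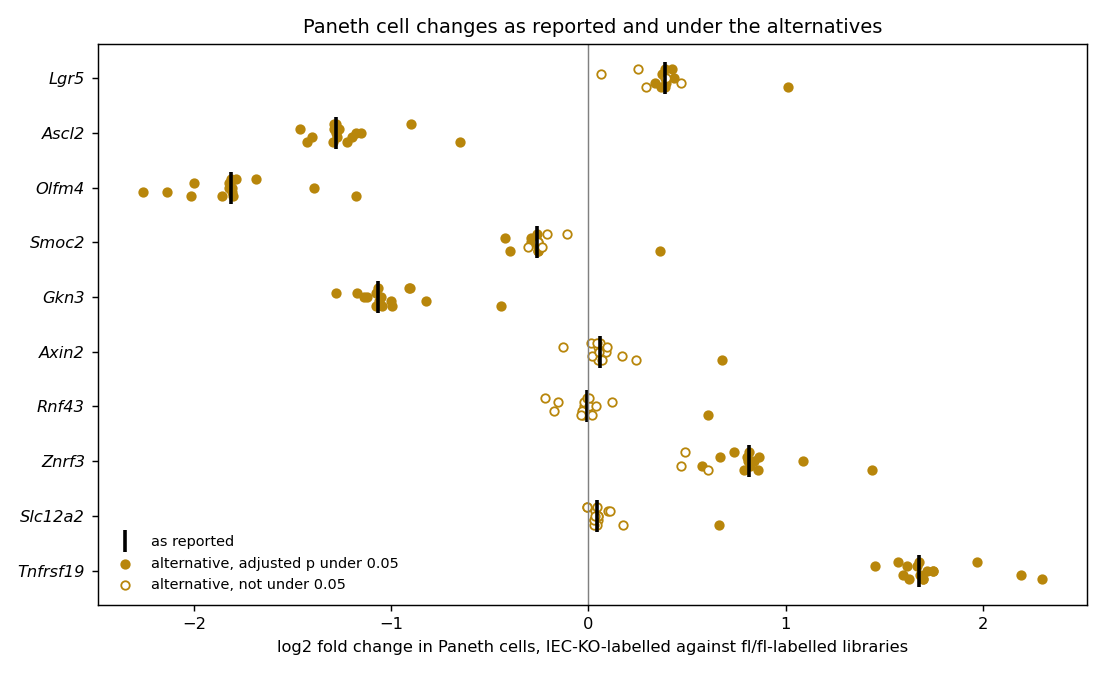
Log2 fold change of each gene in Paneth cells as reported (bars) and under 16 alternatives (points, filled where the adjusted p was under 0.05). Ascl2 ranged from -1.46 to -0.65, Olfm4 from -2.26 to -1.18, Gkn3 from -1.28 to -0.44, Tnfrsf19 from 1.45 to 2.30 and Smoc2 from -0.42 to 0.36.

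Markers of other cells moved with genotype in the Paneth class. Of 30 cycling markers 26 were lower in the IEC-KO-labelled libraries, at a summed 525 and 536 against 286 and 336 CPM, and of 20 enterocyte markers 20 were lower, at 4891 and 5014 against 1852 and 2140. Of 13 tuft markers 11 were lower, and of 20 goblet markers 7 were higher and 7 lower. The Paneth markers moved as well, with 4 of 14 higher and 7 lower (median -1.02). Of 14 dissociation stress genes 8 were higher and 2 lower, and of 4 immune genes 3 were lower. In Paneth cells with no cycling marker UMI among 3000 (436 and 452 against 853 and 897 cells, chosen after seeing the data), Olfm4 was at -2.02, Ascl2 at -1.43, Gkn3 at -0.995, Smoc2 at -0.39 and Tnfrsf19 at 1.62. All 5 passed, beside 31.3% of all 10694 genes tested in these cells. Lgr5 (0.29, adjusted p = 0.203) and Znrf3 (0.61, adjusted p = 0.0855) did not pass there, and the part of the enterocyte, tuft, Paneth, stress and immune genes was not tested.

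The wider pathway was called in both directions in the Paneth class, with 24 of 110 listed genes higher and 27 lower, shares near the 20.1% and 19.8% of all genes tested. Among ligands, Wnt3 rose (0.41, from 1765 and 1851 to 1210 and 1889 UMIs in shallower libraries, adjusted p = 0.000146) and Wnt5a fell, with 13, 19, 2 and 1 UMIs. Of 13 receptors 1 rose and 4 fell, among them Fzd2 (-1.65, from 17, 17, 2 and 5 UMIs), Fzd5 (-0.62) and Lgr4 (-0.51, from 1915, 1979, 633 and 1172 UMIs, adjusted p = 3.63e-06). Of 7 antagonists 0 rose and 2 fell, Dkk3 with 42, 54, 1 and 3 UMIs and Sfrp5 at -0.68.

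The counts by list stand beside the same 20.1% higher and 19.8% lower over all genes. Of 13 cytoplasmic components 1 rose and 1 fell, and of 11 nuclear factors 2 rose and 1 fell. Of 14 other Wnt targets 4 rose and 2 fell, with the clock gene Nr1d2 at 0.99, Ephb3 at 0.66 and Cd44 at -0.79. Among 25 other crypt base columnar markers 9 rose and 8 fell, with Cyp2e1 at 2.30, Rgcc at 1.55 and Slc14a1 at -1.60. Cyp2e1 gave 18, 18, 34 and 85 UMIs and Slc14a1 27, 33, 2 and 11. Of 9 reserve and revival markers 3 rose and 2 fell. Of 14 niche signals 3 rose and 6 fell, with Areg at 2.75, Egfr at 1.33 and Notch2 at -1.14. Areg gave 11, 7, 35 and 45 UMIs and Notch2 27, 30, 4 and 13.

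The difference between classes was tested in a joint fit with an interaction of class and genotype. Against the change in cycling cells, the change in goblet cells was lower for Ascl2 and Gkn3, 2 of the 10 genes (beside 8.00% of all genes tested). The change in enterocytes differed for 0 of 8 with edgeR, beside 0.0439% of all genes. Of these 8, 1 had an unadjusted p under 0.05, beside 606 of all 9117 genes tested. Within enterocytes only Smoc2 and Slc12a2 had enough UMIs to be tested, so a difference could hardly be found for the others. Lgr5, for one, gave 4, 3, 1 and 1 UMIs there. Znrf3 and Tnfrsf19 were too low to be tested in cycling cells, which also limits the goblet and Paneth comparisons for them. The change in Paneth cells differed from that in cycling cells for 4 genes (beside 13.3%), more negative for Ascl2, Olfm4 and Gkn3 and more positive for Lgr5. For Lgr5, the change was -0.50 in cycling cells and 0.39 in Paneth cells, a difference of 0.85 (interval 0.31 to 1.39, edgeR adjusted p = 0.0261). For Gkn3 it was 0.58 and -1.07, a difference of -1.69 (interval -2.18 to -1.19, edgeR adjusted p = 9.31e-07).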

How the data were processed

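Single-cell RNA was measured in 4 libraries (10x Genomics 3′ v2) of sorted crypt cells. The deposited values were whole-number counts of UMIs per gene and cell, made by the authors with Cell Ranger on mm10. The submitters' processing notes name version 2.1.1 and the study's methods a later version, and which made these counts is not settled. The study removed cells by filters and immune clusters, and here every deposited barcode was kept. No column was left without a sample. Cells were classed by summed markers per 10000 UMIs outside the 13 genes whose symbols start with Defa. They were assigned in the order enteroendocrine (60 or more), tuft (10), goblet (500), cycling (10) and enterocyte (60). Levels and thinning left out a wider set of 29 alpha-defensin genes. These limits were set from the distributions in the data, and 1.23% to 4.16% of the cells under 20% lay within 25% of the goblet, cycling or enterocyte limit. In clusters named from the same markers, 930 of 984 cycling, 783 of 785 enterocyte, 8142 of 8325 Paneth and 8811 of 13020 goblet class cells fell in clusters of their own name. Cells nearest to simulated doublets (0.8% per 1000 cells) were left in, and leaving them out was an alternative.

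UMIs were summed per class and library and tested with edgeR 4.0.16 (R 4.3.3), quasi-likelihood test, TMM scaling, filterByExpr, Benjamini-Hochberg adjustment over all genes tested and a threshold of 0.05. Fold changes therefore use the TMM scale, and levels use CPM outside the alpha-defensin genes. An exact permutation test of 2 against 2 libraries cannot go below p = 0.333. Lack of overlap between genotypes is therefore weak evidence by itself, and it was not set against its share over all genes. DESeq2 1.42.0 was an alternative, and clustering used scanpy 1.11.5. The fits were tested on simulated data. Depth per class and library ranged from 70976 UMIs outside the alpha-defensin genes to 44398555, and intervals on shares cover counting error only. UMIs count 3′ ends, so that free RNA from lysed cells can add to a class.

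The genes, lists and classes were chosen with earlier results of these data known. Named in the text are the 10 genes in every class, of the 3 genes most like each of them the first, Slc7a5, and of each list up to 3 called genes with the largest change and no overlap between libraries. Gene positions are from GENCODE M21 on GRCm38 and promoters from RefSeq on GRCm38.p6.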

Additional observations from a re-analysis of the deposited data

Results flagged for a closer look

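Each of 6 differences between classes is given here because the change with genotype differed between 2 cell classes by an interaction test (edgeR quasi-likelihood test, adjusted over all genes). The change of Ascl2 was lower in goblet than in cycling cells by -0.88 on the log2 scale (adjusted p = 0.0261), and it lost this without fl/fl replicate 2, without IEC-KO replicate 1 and with a common lower limit of UMIs per cell. That of Gkn3 was lower in goblet than in cycling cells by -1.01 (adjusted p = 0.0137), and it lost this without fl/fl replicate 2 and with the common limit.

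The change of Lgr5 was higher in Paneth than in cycling cells by 0.85 (adjusted p = 0.0261), and it lost this without fl/fl replicate 1 and without IEC-KO replicate 2. The change of Ascl2 was lower in Paneth than in cycling cells by -1.26 (adjusted p = 1.22e-05), that of Olfm4 by -1.62 (adjusted p = 4.02e-05) and that of Gkn3 by -1.69 (adjusted p = 9.31e-07). The Olfm4 difference was -0.19 and no longer passed with the common limit.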

How the results depend on the processing

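With 2 libraries per genotype, leaving out each library in turn assumed that the lone one varies like the others. The genes called then ran from 141 to 311 in cycling, 2067 to 3454 in goblet, 102 to 254 in enterocyte, 62 to 184 in unassigned and 3950 to 4556 in Paneth cells (169, 3130, 139, 93 and 4990 with all libraries), and the members called from 0 to 1, 0 to 4, 0 to 0, 0 to 0 and 6 to 7 (0, 2, 0, 0 and 7 with all). Members whose change differed from cycling cells ran from 0 to 2 in goblet cells, 0 to 0 in enterocytes and 3 to 4 in Paneth cells. DESeq2 called 60 genes in cycling, 1685 in goblet, 49 in enterocyte, 27 in unassigned and 3123 in Paneth cells. Without a filter 292 genes were called in cycling and 8 in unassigned cells, and with doublets left out 57 in unassigned cells. With a common lower limit of 9670 UMIs per cell, which left 21 and 68 cycling cells in the IEC-KO-labelled libraries, 100 genes were called in cycling and 2079 in goblet cells. With that limit 1 member was called in goblet cells (Tnfrsf19), beside 19.1% of all genes tested. In the difference of goblet from cycling cells 1 member was called with that limit (Lgr5), beside 3.89% of all genes. Cells thinned to 3000 UMIs gave 56 genes in cycling, 1655 in goblet, 72 in enterocyte, 27 in unassigned and 2971 in Paneth cells. Members called there were 1 (Ascl2) in goblet and 4 in Paneth cells, beside 15.2% and 28.8% of all genes tested. The median over the members of the share of cycling cells with a UMI was 6.6% with and 15.91% without thinning. Classes from clusters gave 524 genes and 1 member (Ascl2) in cycling, 2028 and 1 (Slc12a2) in goblet, and 1487 and 2 (Axin2, Slc12a2) in enterocyte cells. Those genes were 4.96%, 18.1% and 15.9% of all genes tested in these classes, and the unassigned class could not be fitted. With library size as the scale 9249 genes were called in Paneth cells, and Smoc2 (0.36) and Rnf43 (0.61) turned there. On that scale 5 members were called in goblet cells, beside 29.9% of all genes. In the difference of Paneth from cycling cells 9 members were called, beside 44.6% of all genes. Alpha-defensin limits of 40% and 10% gave 5 members in goblet cells, beside 24.3% of all genes tested. In Paneth cells they gave 2662 genes (23.1%) and 4 members. Of the alternatives added after seeing the data, cycling goblet cells counted as cycling gave 666 genes (6.24% of all tested) and 2 members in cycling cells. Cycling goblet cells alone gave 500 genes and 0 members. There 2 members (Ascl2 and Olfm4) had an unadjusted p under 0.05, beside 1697 of all 10094 genes tested. The cause of these moves was not tested.

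The labels do not say that equal replicate numbers mark paired libraries, and with 2 pairs the deviations of same-numbered libraries correlated at -0.009 to 0.095. With the replicate block, 4 members were called in goblet cells (Axin2 and Slc12a2 added), beside 31.3% of all genes tested there. It gave 230 genes in enterocyte and 199 in unassigned cells, and the block changed no other call on a member. Depth limited Znrf3 and Tnfrsf19 in cycling cells and 8 of the 10 genes in enterocytes, which were too low to be tested.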
